A study of Mus musculus with 6 samples.

Results

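Laminin-332 is a basement membrane protein whose chains include alpha3 and beta3, and hemidesmosomes are the membrane plaques that bind it. The 8 genes described here were taken from a fixed list of symbols, namely Lama3, Lamb3, Itga6, Itgb4, Col17a1, Plec, Dst and Cd151. Each symbol was matched to its gene identifier in the count files, which list 53379 genes. All 8 were found, and all 8 passed the filter on low counts, which kept 19339 genes for testing. The rule itself uses no measured value, although results of these data were known when the list was drawn up.

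The counts come from 6 RNA sequencing libraries of intestinal stem cells from C57BL/6 mice, 3 labelled control and 3 labelled Klf5-KO. The control genotype was Lgr5-EGFP-IRES-CreERT2;Rosa-tdTomato. The Klf5-KO genotype added Klf5fl/fl, floxed alleles of the gene for the transcription factor Klf5, to the same alleles. Both groups received 1 mg of tamoxifen per injection on 5 days, which switches on the inducible Cre recombinase. Proximal small intestine gave the crypts, which 5 mM EDTA freed and 45 minutes of digestion broke up, and cells with high Lgr5-EGFP were sorted. The Cre and the sorting marker are both driven from the Lgr5 locus, a marker gene of crypt base stem cells, so the sort depends on the activity of that locus. The labels give no age and do not say whether replicates are separate mice, so p-values measure only the spread between libraries.

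In squamous epithelia such as skin, integrin alpha6beta4 spans the basal membrane, binds laminin-332 outside the cell and recruits plakin proteins that hold keratin filaments inside it. Full hemidesmosomes also contain the transmembrane collagen XVII and an epithelial form of dystonin. Simple epithelia such as the intestine build a plainer form, known as the type II hemidesmosome, from integrin alpha6beta4 and plectin. The comparison asked how transcripts for these ligand chains, receptors, linkers and partners differed between the groups.

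Totals ranged from 61563625 to 77666540 counts. By library sizes after TMM scaling, 3 counts in a library correspond to 0.0389 to 0.0484 CPM, the normalised read count used below. Klf5 itself was higher in libraries labelled Klf5-KO, at 891.7 ± 23.1 against 512.8 ± 33.1 CPM (SD, n = 3 each) (edgeR quasi-likelihood test, log2 fold change 0.80, adjusted p = 6.3e-04). That count sums all exons of Klf5, the floxed ones included, and does not check the deletion. In the first principal components of all tested genes control replicate 3 stood apart on the second, which held 13.2% of the variance. Summed Paneth cell markers were 21120 CPM in control replicate 3, against 1751 and 2251 CPM in the other control libraries and 9703 to 12056 CPM in libraries labelled Klf5-KO. Of 12 stem cell markers, 8 were lower in libraries labelled Klf5-KO and 4 were not called. Of markers of other epithelial cells, 6 of 8 for tuft cells and 5 of 10 for enterocytes were higher, and 6 of 8 for enteroendocrine cells and 3 of 8 for goblet cells were lower. The part of these markers in the results was not tested.

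Of the 8 genes, 5 were lower in libraries labelled Klf5-KO, 2 were higher and 1 was not called at an adjusted p under 0.05. Among all tested genes 25.8% were called, 12.5% as lower and 13.3% as higher, and the median log2 fold change was -0.01. The median over the 8 genes was -0.42. For 7 of the 8 genes the values of the 2 groups did not overlap, against 43.2% of all tested genes. The genes did not move as a block: the beta3 chain of laminin-332 fell 6.57-fold and its alpha3 chain rose 2.98-fold.

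Upstream sequence, from RefSeq on GRCm38.p6, was searched for 4 of the 8 genes. Lama3, which rose most, was left out, as were Itga6, Itgb4 and Plec, so their motif matches are not known here. Klf5 belongs to the Krüppel-like factors, which bind CACCC and GC-rich boxes, so the 250 bases before the start were searched on both strands for CACCC, for the GC box GGGCGG and for the AP-1 site TGANTCA. No 2 of these motifs overlap within the windows shown. Lamb3 and Col17a1, the genes with the deepest falls, are set beside Dst, which rose, and Cd151, which was not called, with motif matches in capitals. The Lamb3 window is chr1:193301744-193301993 on the + strand, that of Col17a1 is chr19:47692043-47692292 on the - strand, those of Dst are chr1:34011345-34011594 and chr1:34160010-34160259 on the + strand, and that of Cd151 is chr7:141467112-141467361 on the + strand.
Lamb3: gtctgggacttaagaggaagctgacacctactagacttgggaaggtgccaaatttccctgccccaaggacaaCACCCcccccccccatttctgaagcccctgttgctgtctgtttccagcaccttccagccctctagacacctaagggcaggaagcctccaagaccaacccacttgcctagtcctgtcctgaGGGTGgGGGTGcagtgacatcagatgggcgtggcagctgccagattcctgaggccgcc
Col17a1: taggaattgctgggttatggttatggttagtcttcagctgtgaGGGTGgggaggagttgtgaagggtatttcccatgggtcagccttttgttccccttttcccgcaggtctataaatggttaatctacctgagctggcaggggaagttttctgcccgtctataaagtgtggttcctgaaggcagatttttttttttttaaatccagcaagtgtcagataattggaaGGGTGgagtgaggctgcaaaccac
Dst, first start: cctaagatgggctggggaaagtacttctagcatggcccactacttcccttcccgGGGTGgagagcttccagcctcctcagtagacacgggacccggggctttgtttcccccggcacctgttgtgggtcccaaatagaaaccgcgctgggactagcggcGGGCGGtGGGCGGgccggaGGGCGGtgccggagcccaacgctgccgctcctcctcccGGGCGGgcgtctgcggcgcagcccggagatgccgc
Dst, second start: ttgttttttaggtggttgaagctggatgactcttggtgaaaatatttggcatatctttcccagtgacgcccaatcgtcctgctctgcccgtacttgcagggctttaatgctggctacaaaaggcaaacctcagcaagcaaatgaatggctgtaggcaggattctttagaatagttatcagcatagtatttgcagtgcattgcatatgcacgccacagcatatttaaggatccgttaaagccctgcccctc
Cd151: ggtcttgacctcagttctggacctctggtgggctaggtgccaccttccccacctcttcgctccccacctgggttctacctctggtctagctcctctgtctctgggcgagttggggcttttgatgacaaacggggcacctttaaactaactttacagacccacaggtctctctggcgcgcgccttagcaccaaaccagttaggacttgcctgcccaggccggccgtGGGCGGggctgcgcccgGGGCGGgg
The Lamb3 window held 3 CACCC matches, a number reached by 6.92% of 32851 mouse windows of this length. An adjoining second window of Lamb3, not printed, also held 3. These windows lie inside the Lamb3 span given below, which includes transcripts with a start further upstream. The Col17a1 window held 2, which 21.1% of the windows reach. The first Dst window held 4 GC boxes and 1 CACCC match, and 4.09% of the windows reach 4 GC boxes. The second Dst window, at another start of that gene, held no match, and the Cd151 window held 2 GC boxes, reached by 16.7% of the windows. A second Cd151 window, not printed, held 1 CACCC match. At least 1 CACCC is present in 52.0% of the windows, at least 1 GC box in 32.7% and at least 1 AP-1 site in 6.75%, and none of the windows shown held the AP-1 site. In the order printed, the windows held 58.8%, 46%, 68.8%, 45.2% and 62.4% G or C, against a median of 52.4% over all windows. The shares above are over all windows and are not matched for this content. A match here is a run of letters, not a binding site.

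**Figure D1:**
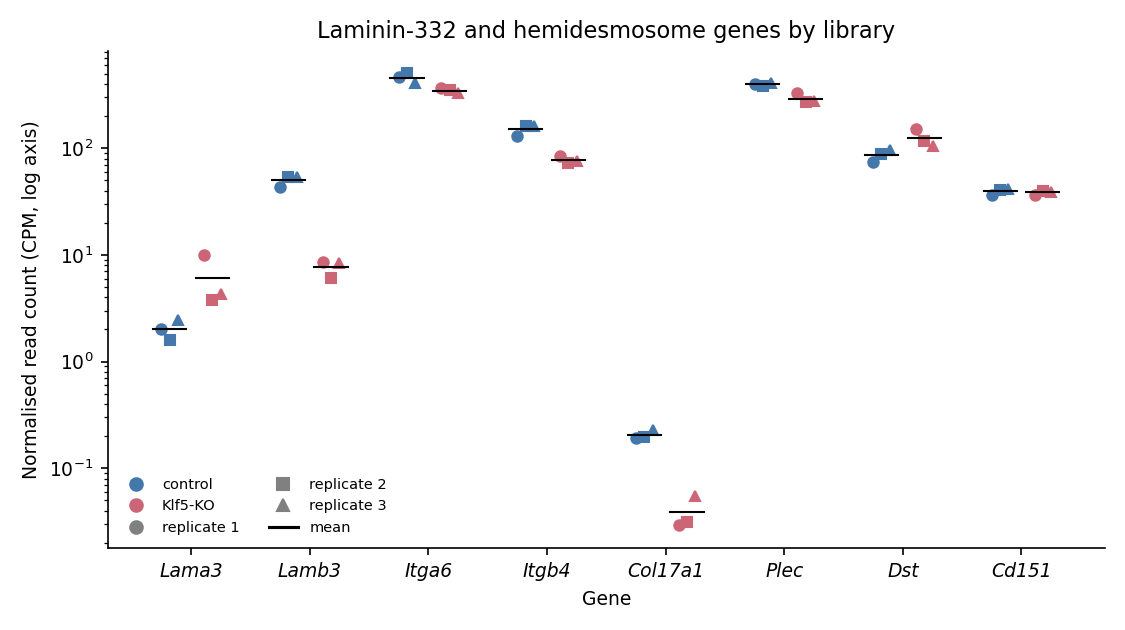
Normalised read count (CPM, log axis) of each gene in each library, with control in blue, Klf5-KO in red, a marker shape per replicate and a line at the group mean. Lamb3 sits at 43.6 to 54.1 CPM in the controls and at 6.11 to 8.55 CPM in libraries labelled Klf5-KO, while Cd151 overlaps between the groups.

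The first ligand gene, Lamb3 (ENSMUSG00000026639.18, mm10 chr1:193207699-193343878, + strand, protein-coding, 34 merged exons), encodes the beta3 chain of laminin-332. It read 43.6, 54.1 and 53.9 CPM in the controls and 8.55, 6.11 and 8.40 CPM in libraries labelled Klf5-KO. The highest of the second group was 5.10-fold below the lowest of the first, so the groups were far apart. The log2 fold change was -2.72 (SE 0.15, edgeR quasi-likelihood test, adjusted p = 8.2e-06), with a 95% interval of -3.06 to -2.37. Only 0.455% of all tested genes had a lower log2 fold change. The counts behind it were 3172 to 4171 per control library and 392 to 608 per library labelled Klf5-KO.

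Lama3 (ENSMUSG00000024421.16, mm10 chr18:12333819-12583013, + strand, protein-coding, 76 merged exons) encodes the alpha3 chain, the part of laminin-332 that integrins bind. It read 2.02, 1.61 and 2.44 CPM in the controls and 10.0, 3.77 and 4.27 CPM in libraries labelled Klf5-KO. Every library labelled Klf5-KO was above every control, and replicate 1 stood well above its fellows. Its log2 fold change reached 1.58 (SE 0.36, edgeR quasi-likelihood test, adjusted p = 0.0125), and without that library it was 1.00 (adjusted p = 0.0255). Lama3 has a long and a short transcript form, which a count per gene does not tell apart. Its levels, shares and ratios per kilobase below divide by the merged length of 10745 bases. They would be higher if the short form prevailed, which was not tested.

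Each chain of a laminin comes from its own class, so the chains were compared per kilobase of gene model (RPKM, the CPM value divided by the length in kilobases). In the controls Lamb3 was at 7.64 RPKM and Lama3 at 0.188 RPKM. In the libraries labelled Klf5-KO they were at 1.16 and 0.560 RPKM. Their values there overlapped only across libraries, since Lamb3 was above Lama3 within each library. Within a library the ratio of Lama3 to Lamb3 was 0.0285, 0.0183 and 0.0278 in the controls and 0.722, 0.380 and 0.313 in libraries labelled Klf5-KO. On the log2 scale the ratio went from -5.36 ± 0.36 to -1.18 ± 0.63 (SD, n = 3 each), a shift of 4.18 (two-sided exact permutation test, p = 0.10, adjusted over 4 ratios 0.10). A design of 3 against 3 libraries cannot give a smaller p. Such a ratio does not depend on how libraries are scaled.

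The other chains below, apart from Lama1, are named as partners of Lama3 and Lamb3 in their classes, with their values already seen. Among the beta chains, Lamb3 made up 67.4%, 69.5% and 66.2% of the class per kilobase in the controls and 30.5%, 28.5% and 31.9% in libraries labelled Klf5-KO. The leading beta chain was thus beta3 in every control and beta2 in every library labelled Klf5-KO. Lamb2, for the widespread beta2 chain, went as a share from 27.1% ± 5.3 to 57.1% ± 4.1 (SD, n = 3 each), yet its own level was 3.02 and 2.20 RPKM and was not called (log2 fold change -0.46, edgeR adjusted p = 0.064). Lamb2 was called lower by DESeq2, with no filter on low counts, and without control replicate 3 (adjusted p = 0.044). The first 2 of these also called Lama4 lower (edgeR adjusted p = 0.077 in the filtered fit). The third beta chain, Lamb1, read 1.28, 2.09 and 15.4 CPM in the controls and 4.13, 6.17 and 3.54 CPM in libraries labelled Klf5-KO. It was not called (log2 fold change -0.43, adjusted p = 0.71), and without control replicate 3, the library high in Paneth markers, its change was 1.45 (edgeR, adjusted p = 0.0103).

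Lama3 was a minor alpha chain throughout. Its share of the alpha class was 6.67%, 3.94% and 4.33% in the controls and 19.8%, 7.30% and 11.8% in libraries labelled Klf5-KO. The main alpha chain was Lama5, the alpha5 chain of mature intestinal basement membrane, at 84.3% and 81.1% of the class. Lama5 did not differ beyond the spread, at 3.35 and 3.49 RPKM (edgeR, adjusted p = 0.88). Lama1 was the only one of 7 tested other laminin genes called in this fit, with 0, 1 and 4 counts in the controls and 31, 17 and 12 counts in libraries labelled Klf5-KO. The control mean lay under the floor of 3 counts per library. Its fitted log2 fold change of 3.52 (adjusted p = 0.0106) became 5.13 without control replicate 3, and its adjusted p became 0.051 without Klf5-KO replicate 1.

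**Figure D2:**
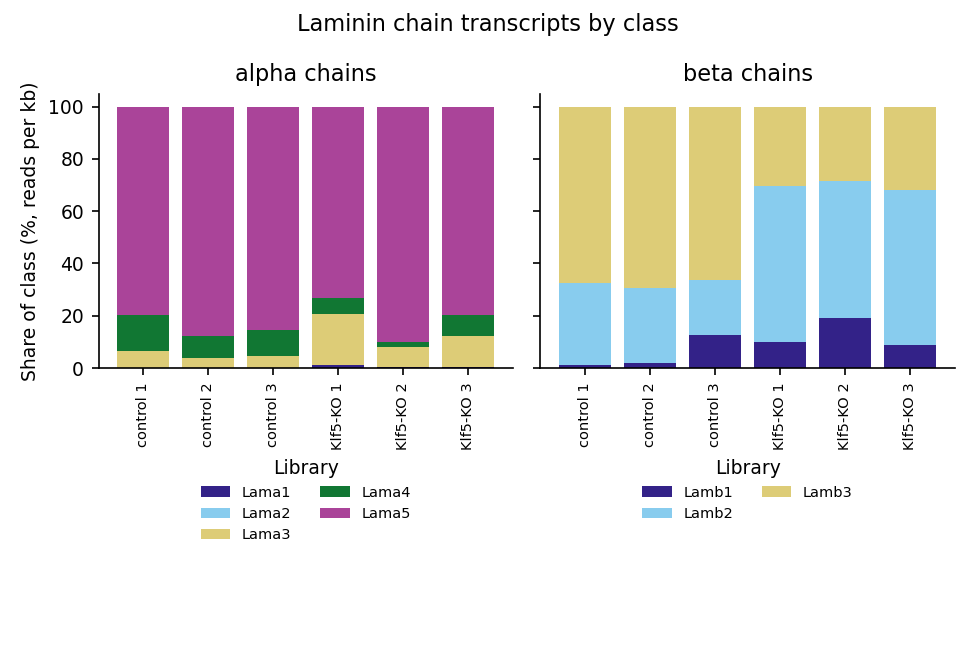
Share of each laminin chain gene within its class (alpha or beta), in percent of reads per kilobase, as stacked bars for each of the 6 libraries. Lamb3 takes 66.2% to 69.5% of the beta class in the controls and 28.5% to 31.9% in libraries labelled Klf5-KO, and Lama5 leads the alpha class in all 6.

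The receptor genes were both lower. Itgb4 (ENSMUSG00000020758.15, mm10 chr11:115974709-116008412, + strand, protein-coding, 41 merged exons) encodes integrin beta4, whose long cytoplasmic tail carries the plaque. It read 131, 163 and 162 CPM in the controls and 84.6, 73.2 and 75.7 CPM in libraries labelled Klf5-KO. The groups were well apart, with means of 152 ± 18.6 and 77.8 ± 6.0 CPM (SD over 3 libraries). Its log2 fold change was -0.97 (SE 0.11, edgeR quasi-likelihood test, adjusted p = 3.4e-04), a 1.95-fold lower level.

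Itga6 (ENSMUSG00000027111.15, mm10 chr2:71745616-71858416, + strand, protein-coding, 31 merged exons) encodes integrin alpha6, which pairs with beta4 in hemidesmosomes and with beta1 elsewhere. It read 464, 503 and 411 CPM in the controls and 363, 352 and 326 CPM in libraries labelled Klf5-KO. The groups did not overlap, but the highest of the second lay close to the lowest of the first. The log2 fold change was -0.40 (SE 0.10, edgeR quasi-likelihood test, adjusted p = 0.0205). The call was lost when any library except control replicate 3 was left out, with adjusted p from 0.051 to 0.092.

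The balance of the subunits was compared within each library. The ratio of Itga6 to Itgb4 per kilobase was 2.76, 2.40 and 1.96 in the controls and 3.34, 3.74 and 3.35 in libraries labelled Klf5-KO. The lowest ratio of the second group was above the highest of the first. The shift was 0.56 on the log2 scale, or 1.48-fold (two-sided exact permutation test, p = 0.10, the smallest this design allows, adjusted over 4 ratios 0.10). Integrin beta1, the other partner of alpha6, is encoded by Itgb1, which read 141, 157 and 128 CPM in the controls and 187, 194 and 190 CPM in libraries labelled Klf5-KO. Itgb1 was called higher (log2 fold change 0.42, SE 0.09, edgeR quasi-likelihood test, adjusted p = 0.010). It was picked for its pairing with Itga6 with its values already seen.

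Col17a1 (ENSMUSG00000025064.14, mm10 chr19:47646344-47692094, - strand, protein-coding, 54 merged exons) encodes collagen XVII, a transmembrane protein of full hemidesmosomes. It had 14, 15 and 14 counts in the controls and 2, 2 and 4 counts in libraries labelled Klf5-KO. All 3 controls were above all 3 others, but the latter sat at about the 3 counts taken as the floor. Summed over libraries this was 43 against 8 counts, and the ratio of rates was 5.20 (95% exact Poisson interval 2.42 to 12.8, counting error only). The fitted log2 fold change was -2.34 (SE 0.47, edgeR quasi-likelihood test, adjusted p = 0.0069). Even in the controls its level per kilobase, 0.0354 RPKM, exceeded that of only 1.62% of tested genes. Per kilobase and on the log2 scale its ratio to Itgb4 was -9.25 ± 0.16 in the controls and -10.76 ± 0.56 (SD, n = 3 each) in libraries labelled Klf5-KO. The ratio was lower in every library labelled Klf5-KO than in any control (two-sided exact permutation test, p = 0.10, adjusted 0.10).

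The plakin linkers moved in opposite directions. Plec (ENSMUSG00000022565.15, mm10 chr15:76170974-76232574, - strand, protein-coding, 46 merged exons) encodes plectin, which ties integrin beta4 to keratin filaments. It read 397, 382 and 412 CPM in the controls and 330, 269 and 277 CPM in libraries labelled Klf5-KO. The groups did not overlap, and the log2 fold change was -0.44 (SE 0.10, edgeR quasi-likelihood test, adjusted p = 0.0127). The call was lost without Klf5-KO replicate 2 (adjusted p = 0.067) or replicate 3 (adjusted p = 0.062). Plec shares 205 exonic bases on its strand with Parp10, where a read cannot be assigned to 1 gene alone.

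Dst (ENSMUSG00000026131.18, mm10 chr1:33908225-34308661, + strand, protein-coding, 106 merged exons) encodes dystonin, also called BPAG1. One of its forms is the epithelial plaque protein, and others are the much longer forms of nerve and muscle, and all of them add to this count. It read 73.8, 88.6 and 96.9 CPM in the controls and 152, 117 and 105 CPM in libraries labelled Klf5-KO. The groups did not overlap, with replicate 1 highest in the second and lowest in the first. The log2 fold change was 0.53 (SE 0.15, edgeR quasi-likelihood test, adjusted p = 0.0272). The call was lost without control replicate 1, control replicate 2 or Klf5-KO replicate 1, with adjusted p of 0.082, 0.069 and 0.087.

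Per kilobase Plec exceeded Dst in every library, with Dst divided by the merged length of all its forms, 41155 bases. The ratio of Dst to Plec was 0.0818, 0.102 and 0.104 in the controls and 0.203, 0.192 and 0.167 in libraries labelled Klf5-KO. The groups were apart, and the shift was 0.97 on the log2 scale, or 1.96-fold (two-sided exact permutation test, p = 0.10, the smallest this design allows, adjusted over 4 ratios 0.10). Enteric nerve and glia also express Dst. Of 8 of their markers 5 were too low to test, and their summed level was 2.43 to 2.71 CPM in the controls and 2.67 to 3.46 CPM in libraries labelled Klf5-KO. Of the 3 markers tested, 1 was called higher in libraries labelled Klf5-KO and 2 were not called. Sox10, a defining gene of glia, was at 0 to 0.0276 CPM in all 6 libraries. The part of nerve and glia in the Dst count was not tested.

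Cd151 (ENSMUSG00000025510.14, mm10 chr7:141467392-141471473, + strand, protein-coding, 5 merged exons) encodes a tetraspanin that associates with laminin-binding integrins, alpha6beta4 among them. It read 36.3, 40.6 and 41.5 CPM in the controls and 36.5, 39.9 and 39.2 CPM in libraries labelled Klf5-KO. The groups overlapped almost fully. The log2 fold change was -0.03 (SE 0.09, edgeR quasi-likelihood test, adjusted p = 0.80). Its 95% interval, -0.24 to 0.17 or 0.849-fold to 1.12-fold, does not reach the fitted change of any of the other 7 genes.

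**Figure D3:**
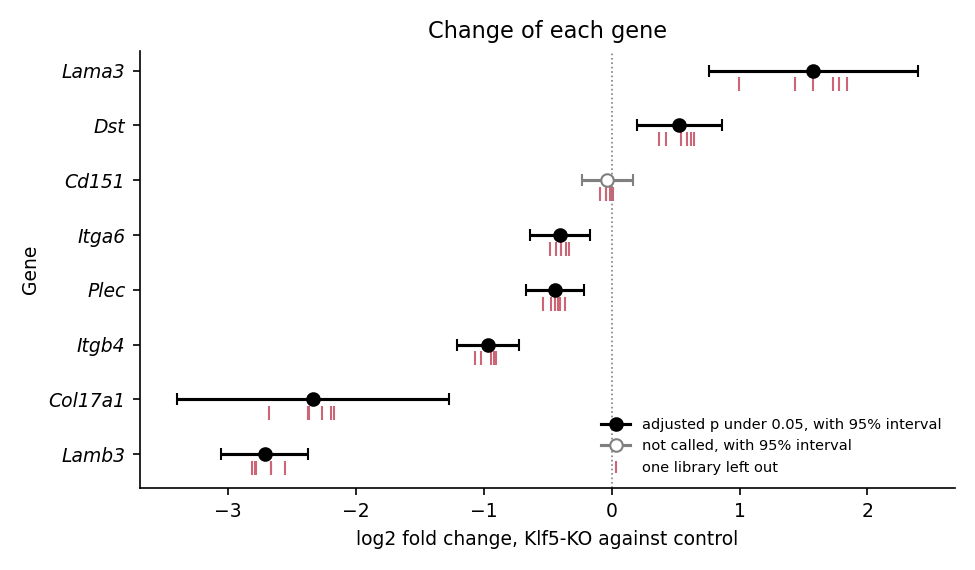
Log2 fold change of each gene, Klf5-KO against control, with its 95% interval, filled where the adjusted p was under 0.05 and open where not. Red ticks give the value with each library left out in turn. Lamb3 and Col17a1 lie furthest below 0, Lama3 lies furthest above it, and the open point is Cd151.

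In the order of levels per kilobase, Itga6 led both groups, at 50.9 RPKM in the controls and 38.5 RPKM in libraries labelled Klf5-KO. In the controls Plec at 21.9 RPKM and Itgb4 at 21.7 RPKM followed with overlapping values, then Cd151 at 14.4, Lamb3 at 7.64, Dst at 2.10, Lama3 at 0.188 and Col17a1 at 0.0354 RPKM. All other neighbours in that order were apart in every library. The place of Dst depends on its length of 41155 bases, which merges the exons of all its forms. The level of Lama3 likewise depends on its merged length of 10745 bases. Before division by length, Dst averaged 86.4 CPM in the controls and Lamb3 50.5 CPM. In the libraries labelled Klf5-KO the order was Itga6, Plec, Cd151, Itgb4, Dst, Lamb3, Lama3 and Col17a1, and only Lamb3 and Lama3 overlapped. Itga6 stood above 96.3% of the tested genes in the controls, Itgb4 above 89.9% and Lama3 above 13.1%. The genes of the type II hemidesmosome were thus abundant here, and Col17a1, particular to the full form in skin, was near the floor.

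**Figure D4:**
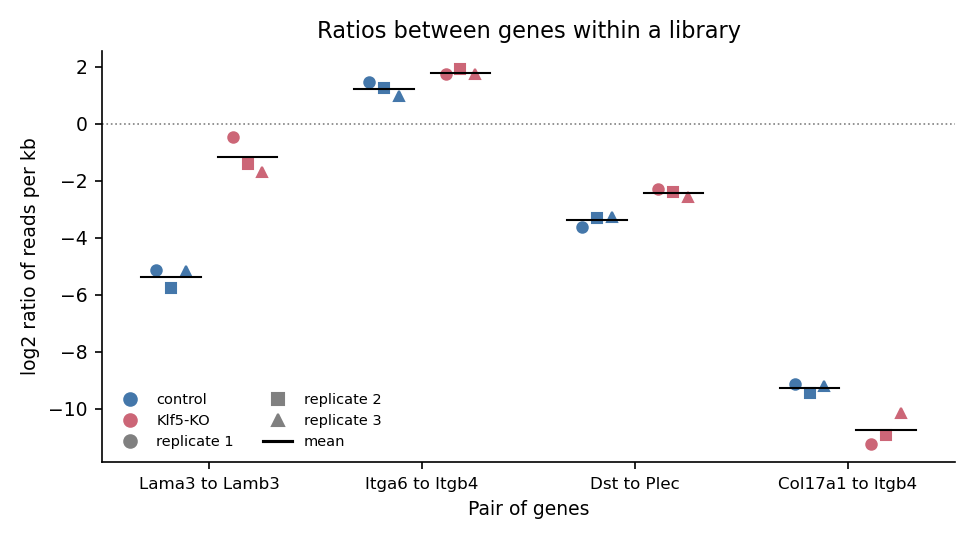
Log2 ratio of reads per kilobase between genes within a library, for 4 pairs, with control in blue, Klf5-KO in red, a marker shape per replicate and a line at the group mean. None of the 4 pairs overlaps between groups, and Lama3 to Lamb3 shifts most, from -5.36 to -1.18.

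The markers of squamous basal cells, the cells best known for hemidesmosomes, were mostly absent. Of 11 markers 5 could be tested, Krt5 had no count in any library, and Krt14 and Trp63 stayed at 0 to 0.0962 CPM. The 2 that were called were both lower, Krt15 from 10.7 to 3.35 CPM (log2 fold change -1.67) and the cell cycle regulator Sfn from 132 to 60.3 CPM (log2 fold change -1.13). The labelled tissue was present, with the epithelial gene Epcam at 939.9 to 1099.9 CPM in all 6 libraries. Of 8 epithelial markers, Epcam among them, 4 were lower in libraries labelled Klf5-KO, 1 was higher and 3 were not called. These 8 summed to 5499 to 5995 CPM in the controls and 4392.5 to 4693 CPM in libraries labelled Klf5-KO. The stem cell gene Lgr5 was at 128 to 163 CPM in the controls and 81.2 to 96.8 CPM in libraries labelled Klf5-KO. Lgr5, whose locus drives the Cre and the sorting marker, was called lower (log2 fold change -0.68, edgeR adjusted p = 0.0027), and its part in the results was not tested. Fibroblasts, a known source of other laminins, were barely detected, with 10 markers summing to 0.426 to 0.713 CPM in the controls and 0.906 to 1.28 CPM in libraries labelled Klf5-KO. Of these markers 2 were tested and 1, Col1a2, was higher, from 0.0434 to 0.643 CPM. Smooth muscle and pericyte markers summed to 5.03 to 6.28 CPM in the controls and 2.57 to 3.02 CPM in libraries labelled Klf5-KO. Endothelial markers summed to 19.9 to 21.3 and 13.9 to 15.1 CPM, and 2 of the 6 tested were lower, Vwf from 3.54 to 1.02 CPM (edgeR adjusted p = 3.4e-04) and Lyve1 from 2.42 to 0.934 CPM (adjusted p = 0.0029). Esam gave most of the sum and was not called, and Cdh5 was at 0 to 0.0323 CPM. In bulk samples of sorted cells, fewer cells of a type and less RNA per cell cannot be told apart.

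Among the other structural genes of the basement membrane, 9 of 16 were tested, of which 6 were lower and 3 were not called. Counts here and in the lists below stand beside 25.8% called among all tested genes, 12.5% as lower and 13.3% as higher. Ntn4, for a netrin that binds laminin gamma chains, fell from 15.8 ± 3.7 to 2.85 ± 0.26 CPM (SD, n = 3 each; log2 fold change -2.47, edgeR, adjusted p = 4.9e-05). Nid2, for the linker nidogen-2, fell from 24.1 to 5.93 CPM (adjusted p = 0.0016), and Hspg2, for the proteoglycan perlecan, fell from 230 ± 27 to 82.5 ± 2.2 CPM (log2 fold change -1.48, adjusted p = 2.5e-05). The median log2 fold change of the 9 was -1.28. Without control replicate 3, 2 of the list were called higher.

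The 10 other laminin receptor genes split evenly, with 4 higher, 4 lower and 2 not called. Itga1, for the alpha1 subunit of a beta1 integrin that binds collagens and laminins, rose from 48.6 ± 3.3 to 172 ± 19 CPM (SD, n = 3 each; log2 fold change 1.83, edgeR, adjusted p = 9.0e-06). Itga3, whose product also binds laminin-332, fell from 96.1 to 65.6 CPM (log2 fold change -0.55, adjusted p = 0.0030). The heparan sulfate proteoglycan Sdc1 fell from 127 to 81.3 CPM (log2 fold change -0.65, adjusted p = 8.6e-04).

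Inside the cell, the list of other plakins and filament proteins leaned as Plec did. Of 13 genes 12 were tested, 9 were lower, 1 was higher and 2 were not called, with a median log2 fold change of -0.68. Krt7, a simple epithelial keratin, fell from 136 to 28.7 CPM (log2 fold change -2.24, edgeR, adjusted p = 1.9e-05). The plakin envoplakin, Evpl, fell from 32.7 to 19.3 CPM (adjusted p = 7.2e-04), and epiplakin, Eppk1, from 641 to 381 CPM (adjusted p = 0.0014). Without control replicate 3 and Klf5-KO replicate 2 together, 7 were lower and 2 higher.

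Among kinases and adaptors tied to integrin alpha6beta4 signalling, 4 of 17 were lower, 2 were higher and 11 were not called. Mst1r, the receptor for macrophage-stimulating protein, fell from 52.3 to 17.0 CPM (log2 fold change -1.62, edgeR, adjusted p = 2.7e-05), and Erbb2 from 182 to 124 CPM (adjusted p = 0.0040). Fyn, a Src family kinase that phosphorylates the beta4 tail, rose from 11.2 to 20.2 CPM (log2 fold change 0.86, adjusted p = 0.0027), and without Klf5-KO replicate 3 only 1 of the list was called higher. Of the actin-linked focal adhesion genes 21 of 22 were tested, and 6 were lower, 3 higher and 12 not called, with a median log2 fold change of -0.07. They included the scaffold Bcar1, lower from 69.5 to 31.4 CPM (adjusted p = 4.0e-05), the talin Tln2, lower from 48.8 to 27.4 CPM (adjusted p = 0.0025), and the tensin Tns1, higher from 0.305 to 1.19 CPM (adjusted p = 0.0040). Without Klf5-KO replicate 3, 1 of these was called higher.

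**Figure D5:**
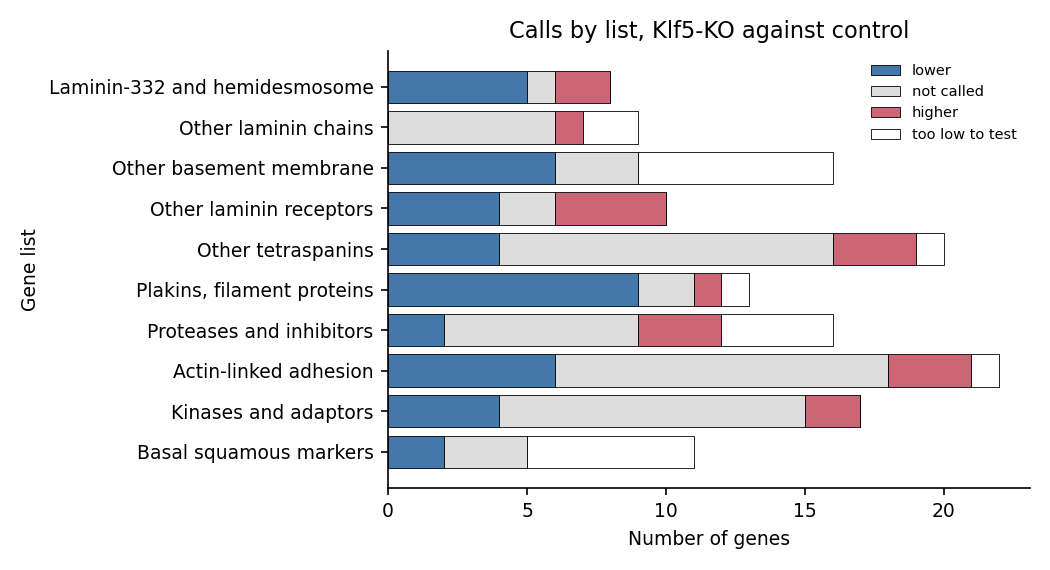
Number of genes called lower (blue), not called (grey), called higher (red) and too low to test (white) in each list, Klf5-KO against control at an adjusted p under 0.05. The laminin-332 and hemidesmosome bar holds 5 lower, 1 not called and 2 higher.

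The genes with the most similar profiles over the 6 libraries were found by the Euclidean distance between centred log2 CPM values, among 10594 genes averaging at least 5 CPM. Nearest to Lamb3 were L1cam at a distance of 0.23, Efna3 at 0.35, Cacna1a at 0.37, Fgfbp1 at 0.41 and Rapgefl1 at 0.44. L1cam, a neural cell adhesion molecule, averaged 67.3 and 10.1 CPM in the 2 groups, a log2 fold change of -2.74 that is close to that of Lamb3. Nearest to Itgb4 were Fhl2 at 0.14, Adgrg1 at 0.16, Sec22c at 0.18, Tmem63a at 0.21 and Cobl at 0.22. Nearest to Col17a1 were Cldn15 at 0.28, Cited4 at 0.38, Mycl at 0.40, Fam129b at 0.40 and Nqo1 at 0.43, but the Col17a1 profile is damped by the prior count of 2 at its low counts. The distance is a description over 6 libraries in 2 groups, and any gene with a like change between groups scores well.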

How the data were processed

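RNA was measured in 6 libraries, 3 a group. The authors deposited raw whole-number counts for each gene. The submitters' processing notes name STAR 2.5.2a and the mm10 build. The counting tool was featureCounts 1.4.3-p1, per the file headers, run on the GENCODE vM16 annotation in its reverse-stranded mode, which keeps antisense genes apart. Symbols came from GENCODE vM21, which matched 53274 of 53379 identifiers.

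The counts were tested with edgeR 4.0.16 (R 4.3.3): filterByExpr, TMM scaling, a quasi-likelihood fit on group alone, and Benjamini-Hochberg adjustment over 19339 genes, called at an adjusted p under 0.05. CPM uses TMM library sizes, and levels per kilobase use the gene lengths in the files. The biological coefficient of variation was 17.0%. The fit was also run on counts simulated from its own fitted model, with changes set in well counted genes only. That run does not cover changes as small as those of Itga6, Plec and Dst, or counts as low as those of Col17a1. limma 3.58.1 and DESeq2 1.42.0 gave alternatives. Without replicate-level ties in the labels no block was used.

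Named genes are the 8 genes, up to 3 called genes per list with the smallest adjusted p, Klf5, and the 5 nearest profiles to Lamb3, Itgb4 and Col17a1. Other laminin chains, Itgb1 and cell type markers were named after their values were seen. The 8 genes and the lists were chosen with earlier results of these data known. Intervals on counts cover counting error only.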

Additional observations from a re-analysis of the deposited data

How the results depend on the processing

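Lamb3, Itgb4, Lama3 and Col17a1 kept their direction and an adjusted p under 0.05 in every alternative fitted, with log2 fold changes of -2.81 to -2.52, -1.07 to -0.87, 1.00 to 1.98 and -2.68 to -2.14, except that Col17a1 was too low to be tested where CPM above 1 in 3 libraries was required. Itga6, Plec and Dst kept their direction and lost the call in 5, 3 and 4 of the alternatives at that threshold. At an adjusted p under 0.01, 3 of the 8 genes were lower and 0 higher (edgeR adjusted p of 0.0125 for Lama3 and 0.0272 for Dst), and 1118 genes were lower and 1226 higher over the whole table. With 1 library left out in turn, 3 to 5 of the 8 genes were lower and 1 to 2 higher, with 1467 to 2664 lower and 1605 to 2740 higher genes in all. Same-numbered libraries did not deviate together (correlations of -0.009, 0.006 and -0.041), and with the replicate number as a block 1 of the 8 genes was higher, since Dst had an adjusted p of 0.057, and Lama4 was called lower (adjusted p = 0.025). For the 4 ratios the block leaves the mean shift as it is by construction, 4.18 for Lama3 to Lamb3, and the exact sign-flip p was 0.25, the smallest that 3 pairs allow. Signs changed only for genes that were not called: Cd151 to 0.0012 without control replicate 3 and 0.0080 without Klf5-KO replicate 1 (range with 1 library left out -0.093 to 0.0080), Lama5 to -0.16 without control replicate 1 and -0.11 without Klf5-KO replicate 2 (range -0.16 to 0.32), and Lamb1 (range -0.92 to 1.45) to 0.44 with limma-voom, 0.44 with the replicate block, 1.19 without control replicate 3 and Klf5-KO replicate 2, and 1.45 without control replicate 3. The causes were not tested. With 1 library left out, the log2 shifts of the 4 ratios ran over 3.82 to 4.42 (Lama3 to Lamb3), 0.43 to 0.68 (Itga6 to Itgb4), 0.86 to 1.05 (Dst to Plec) and -1.81 to -1.27 (Col17a1 to Itgb4). Depth limits Col17a1, at 2 to 15 counts per library.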

Other observations

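The tetraspanin family beyond Cd151 did not move one way. Of 20 other genes 19 were tested, 4 were lower, 3 were higher and 12 were not called, with a median log2 fold change of 0.11. Tspan15, a partner of the membrane protease Adam10, dropped to 17.5 CPM from 59.6 CPM (edgeR quasi-likelihood test, adjusted p = 7.5e-05, log2 fold change -1.77). Cd9, a broadly expressed tetraspanin that binds other integrins, fell from 38.5 to 18.6 CPM (log2 fold change -1.05, adjusted p = 3.5e-04). Tspan13 rose from 23.0 to 39.3 CPM (log2 fold change 0.77, adjusted p = 0.0014).

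Laminin-332 is trimmed outside the cell, and among 16 proteases and inhibitors tied to that step or to matrix turnover 12 were tested, 3 were higher, 2 were lower and 7 were not called. Bmp1, a protease that cleaves laminin-332 chains, rose from 11.4, 15.8 and 13.2 CPM in the controls to 33.9, 24.6 and 23.0 CPM in libraries labelled Klf5-KO (log2 fold change 1.01, SE 0.17, edgeR, adjusted p = 0.0028). Every library labelled Klf5-KO was above every control. The inhibitors Timp1 and Timp2 moved apart at low levels, from 0.275 to 1.21 CPM (log2 fold change 2.14, adjusted p = 0.0088, and 1.53 without Klf5-KO replicate 2) and from 1.32 to 0.478 CPM (log2 fold change -1.46, adjusted p = 0.0088). Leaving out any of 3 libraries (control replicate 2 or replicate 1 or 3 labelled Klf5-KO) left 1 of this list lower.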
